A study of Mus musculus with 6 samples.

Results

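The solute carrier (SLC) genes are the largest family of membrane transporters in mammals, and those described here carry amino acids, sugars, ions, metals, vitamins, nucleosides, lipids and nucleotide sugars across the plasma membrane and the membranes of the ER, Golgi, lysosome and vesicles. They were chosen as protein-coding genes with a symbol that begins with Slc or Slco and a digit, without the mitochondrial Slc25 family, and were selected on a mean of at least 1 TPM (an abundance scaled for transcript length and depth) over 6 libraries. Of 338 such genes, 131 reached the threshold. The other 207 lay under it, and 41 of these were listed at 0 in every library. The mean takes all 6 libraries together, so a gene high in 1 group can pass through that group: 7 genes, Slc2a6, Slc15a3 and Slc18a2 among them, averaged under 1 TPM in WT libraries and passed through Wtap KO libraries, and 1 gene passed through WT libraries. Just inside the threshold were Slc18a2 at 1.04, Slc9b2 at 1.14 and Slc15a3 at 1.14 TPM, and just outside it Slc6a19 at 0.905, Slc7a3 at 0.867 and Slc1a4 at 0.858 TPM. Although they share the family name, 3 of the 131 genes encode no transporter: Slc9a3r1 is a scaffold, and Slc7a6os and Slc4a1ap are named after a neighbour and a binding partner.

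The libraries were 3 of Wtap KO and 3 of WT mouse CD4+ T cells on the C57BL/6J background. Wtap belongs, as a non-catalytic subunit, to the nuclear enzyme that puts the m6A mark on mRNA. Per the labels, T cells had 1 µM 4-OH-tamoxifen for 24 h, a step given for the depletion of Wtap in protocol text that is shared by both groups. Both were then activated with anti-CD3 (1 µg/mL) and anti-CD28 (2.5 µg/mL) in Th1 conditions (IL-12 at 10 ng/mL, anti-IL-4 at 10 µg/mL) over 40 to 48 h, expanded in IL-2 at 200 IU/mL and collected at day 4. Not given in the sources used here are the Cre driver, the deleted stretch of Wtap and the animal behind each library, so p-values cover only the scatter of these libraries, which may be technical.

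Depth lay between 32363139 and 44039467 estimated counts per library. Summed over its transcripts, Wtap was not lower in the cells labelled as KO (114, 120 and 119 CPM, counts scaled to library size, in Wtap KO cells and 114, 106 and 94.3 CPM in WT cells, edgeR adjusted p = 0.371), and with the deleted stretch unknown this sum does not check the labels. Library 3 of the Wtap KO group stood apart by sex, with 63.3 CPM of Y-linked Kdm5d, where the other 5 libraries had 2.43 to 3.53 CPM. The 8 markers of CD4 T cells summed to 2367 to 2547 TPM in Wtap KO and 2995 to 3221 TPM in WT libraries, and 2 of them, Cd3g and Cd4, fell. Markers of other cells were low. The dendritic cell list summed to 5.40 to 7.58 TPM in Wtap KO and 1.13 to 2.85 TPM in WT libraries, most of it H2-Aa, which rose, and the CD8 list to 11.4 to 13.9 TPM in Wtap KO and 7.18 to 7.79 TPM in WT libraries, with a rise of Cd8b1. The macrophage and monocyte list summed to 0.535 to 2.68 TPM in Wtap KO and 0.246 to 1.49 TPM in WT libraries, with C1qa at 0 in every library. The part of such cells in the results was not tested. In bulk RNA, fewer cells of a type and less RNA per cell cannot be told apart.

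Each SLC protein moves a small set of solutes, either down a gradient (uniporters such as the GLUT glucose carriers) or coupled to sodium, protons or a counter-solute. T cells that leave quiescence raise the uptake of glucose, amino acids, iron and zinc, and carriers such as Slc2a1, Slc7a5 with its partner Slc3a2, and Slc1a5 are known for this step. Organelle carriers supply the Golgi with sugar nucleotides and empty the lysosome of breakdown products.

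The change with the smallest p among these genes was at Slc2a9, and its transcripts are shown first because the test of transcript usage also called this gene. Slc2a9 lies on the minus strand of chromosome 5 (chr5:38349273-38503143, GRCm38). Transcripts Slc2a9-206 and Slc2a9-203 share the exon at chr5:38477395-38477493 and then part: Slc2a9-206, annotated as non-coding, ends in a last exon of its own at chr5:38476332-38476647, while the coding transcript Slc2a9-203 goes on at chr5:38453102-38453262. Slc2a9-204, annotated as a target of nonsense-mediated decay, skips the exon at chr5:38398702-38398889, 188 bases long, that Slc2a9-203 holds. The 4 junctions are printed 5′ to 3′ on the transcribed strand, from GENCODE M21, with the last 30 bases of the exon in lower case and the first 30 bases of the next exon in capitals.
Slc2a9-206, into its own last exon: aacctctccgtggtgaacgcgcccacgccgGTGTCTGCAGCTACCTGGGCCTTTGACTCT
Slc2a9-203, into the next coding exon: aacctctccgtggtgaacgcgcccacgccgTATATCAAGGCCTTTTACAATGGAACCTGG
Slc2a9-203, into the exon of 188 bases: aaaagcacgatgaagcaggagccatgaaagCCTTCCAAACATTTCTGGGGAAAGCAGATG
Slc2a9-204, past that exon: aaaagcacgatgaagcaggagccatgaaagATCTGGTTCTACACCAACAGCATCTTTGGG

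Among the 131 genes, 19 rose in Wtap KO cells and 1 fell, by edgeR's quasi-likelihood test with Benjamini-Hochberg adjustment over all genes. As a share this was 14.5% higher and 0.763% lower, against a background of 9.23% called in either direction, 5.75% higher and 3.49% lower over all 17610 genes tested and 6.94% higher and 3.75% lower over protein-coding genes. The remaining 111 did not pass. Of the 7 genes that had passed the threshold through Wtap KO libraries 3 rose, and among the genes with both group means at 1 TPM or more 16 rose (13%) and 1 fell (0.813%). CPM values of the 2 groups did not overlap for 35.9% of the genes, 35 higher (26.7%) and 12 lower (9.16%) in Wtap KO cells, against a background of 32.7%, with 17.2% higher and 15.5% lower. The median log2 fold change was 0.10 over the SLC genes, -0.00 over all genes tested and 0.01 over protein-coding genes. None of these backgrounds had a TPM floor, whereas the SLC genes were selected on a mean of at least 1 TPM. Shares over the 13437 genes of the series at that level are not given, so the sets compared are unlike in level. The counts depended on single libraries: 2, 3 and 6 genes were higher without Wtap KO library 1, 2 or 3 in turn, and 24, 3 and 18 without WT library 1, 2 or 3 in turn. A gene length offset ended the calls of Slc3a2, Slc38a10, Slc14a1, Slc17a5, Slc45a4, Slc12a4, Slc39a11 and Slc15a3 (edgeR adjusted p of 0.0537 to 0.144). A GC content offset ended those of Slc3a2, Slc29a1, Slco4a1, Slc38a10, Slc39a11 and Slc15a3 (0.0606 to 0.107). Of the called genes, Slc2a9 and Slc19a1 passed under all 17 alternatives, whatever library was left out. No called gene changed direction in any, but the groups of each were apart in CPM, so omitting a library could hardly reverse it.

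**Figure D1:**
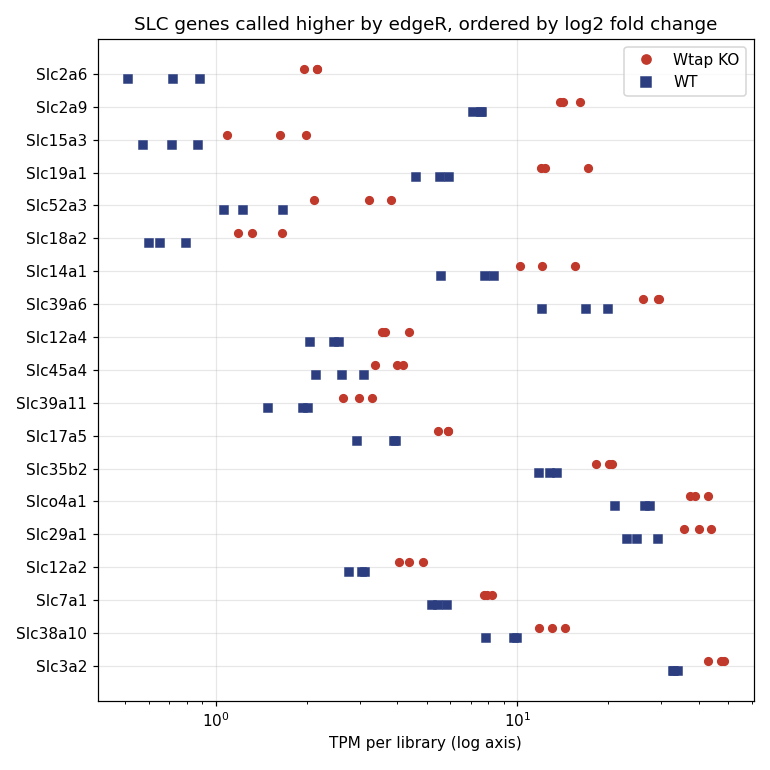
TPM of each of the 19 risen SLC genes in each library (log axis), with Wtap KO libraries above the WT libraries of the same gene. Slc2a9 lay at 13.8 to 16.2 TPM in Wtap KO and 7.13 to 7.66 TPM in WT libraries, and in each gene every Wtap KO point lay above every WT point.

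By substrate, called genes were found among carriers of amino acids (4 of 19), sugars (3 of 10), ions (2 of 22 higher), metals (2 of 23), nucleosides or vitamins (3 of 12), nucleotide sugars (1 of 16) and organic ions (4 of 10). None of the 5 monocarboxylate carriers and none of the 6 carriers of lipids, choline or bile acids passed in edgeR or DESeq2; 0 and 1 of them had an unadjusted edgeR p under 0.05. By membrane, 11 of 56 plasma membrane carriers rose. Of 13 carriers of the lysosome or endosome 3 rose (Slc2a6, Slc15a3 and Slc17a5), and of 28 carriers of the ER or Golgi 2 rose. These counts include Slc2a6 (sugars), Slc15a3 (amino acids) and Slc18a2 (organic ions), which passed the TPM threshold through Wtap KO libraries, where they are high. Differences between these groups were not tested.

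**Figure D2:**
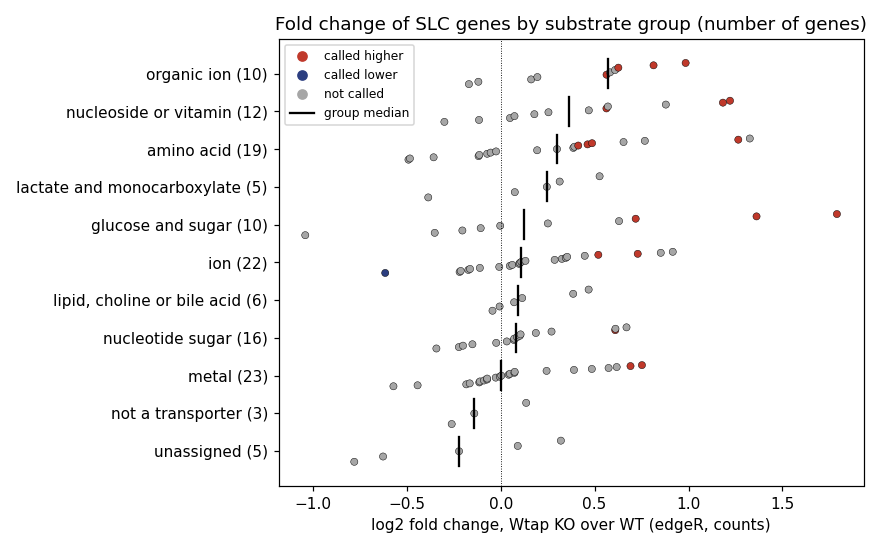
Log2 fold change of counts (Wtap KO over WT) of every SLC gene by substrate group, with called genes marked and the median of each group. Group medians ran from -0.22 in genes of unassigned substrate to 0.57 in carriers of organic ions, beside 0.10 over all 131 genes.

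Sugar carriers held the largest fold and the smallest p. Slc2a9 (GLUT9), a carrier best known for urate, had 16.2, 13.8 and 14.2 TPM in Wtap KO libraries and 7.13, 7.66 and 7.59 TPM in WT libraries. The groups did not overlap, and the log2 fold change of counts was 1.36 ± 0.12 (SE, n = 3 each, edgeR adjusted p = 0.0011). The log2 difference was smaller, at 0.92 with a gene length offset in edgeR and at 0.89 in limma on log2(TPM + 1), and passed in both. Slc2a6 (GLUT6), a hexose carrier of the lysosome, had 2.17, 2.17 and 1.97 TPM in Wtap KO libraries and 0.510, 0.886 and 0.723 TPM in WT libraries. Its log2 fold change of 1.79 ± 0.33 was the largest of the called genes (edgeR adjusted p = 0.0153), at levels near the threshold of choice, and was 0.87 on log2(TPM + 1). Slc45a4, of the SLC45 family of proton-coupled sugar carriers, had 4.19, 4.00 and 3.38 TPM in Wtap KO and 2.62, 3.10 and 2.14 TPM in WT libraries (log2 fold change 0.72 ± 0.18, edgeR adjusted p = 0.0383). Leaving out Wtap KO 1 or Wtap KO 2 ended the call of Slc2a6 (adjusted p up to 0.0753), and leaving out any library but WT 1 ended that of Slc45a4 (up to 0.169), while that of Slc2a9 was at most 0.0120.

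The major glucose carriers of T cells spread widely within a group. Slc2a3 (GLUT3), a high-affinity glucose carrier, had 20.9, 21.8 and 27.4 TPM in Wtap KO libraries and 86.9, 24.5 and 40.8 TPM in WT libraries. WT 2 lay inside the Wtap KO range, and its log2 fold change, -1.04 ± 0.38, missed the threshold (edgeR adjusted p = 0.141). It passed in DESeq2 (adjusted p = 0.0137) and without WT 2 (edgeR adjusted p = 0.0311), and was -0.53 without WT 1. Slc2a1 (GLUT1), the carrier that rises with T cell activation, had 20.5, 16.6 and 17.9 TPM in Wtap KO libraries and 14.6, 13.3 and 34.7 TPM in WT libraries. Here WT 3 was the high library and the other 2 WT libraries were the lowest of the 6 (log2 fold change -0.20 ± 0.35, edgeR adjusted p = 0.773). Slc50a1 (SWEET1), a sugar uniporter and the highest of the group, had 53.9 to 58.9 TPM in Wtap KO and 50.0 to 59.0 TPM in WT libraries, and its groups overlapped.

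**Figure D3:**
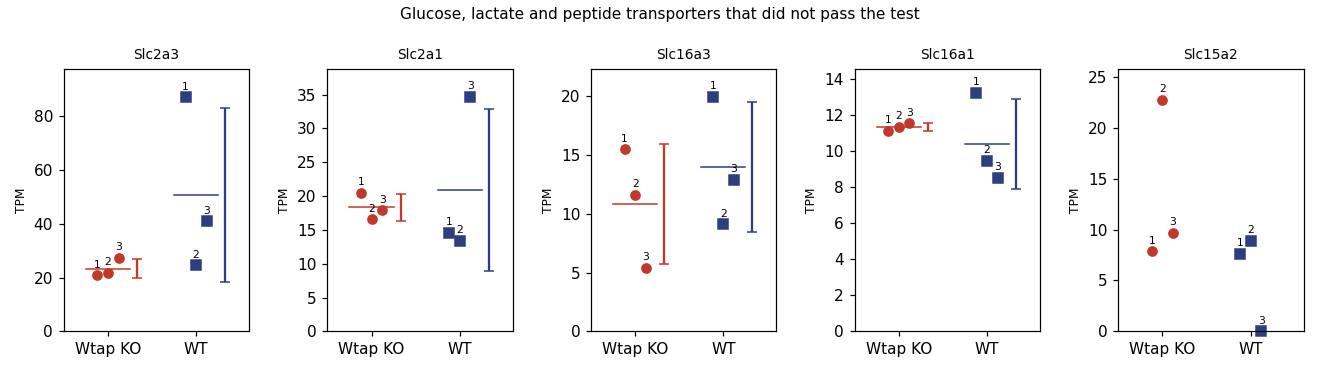
TPM of Slc2a3, Slc2a1, Slc16a3, Slc16a1 and Slc15a2 in each numbered library, Wtap KO left of WT, with a line for the mean and a bar for the SD except for Slc15a2, which is listed at 0 in WT 3. Single libraries lie far from the others of their group: 86.9 TPM for Slc2a3 in WT 1, 34.7 TPM for Slc2a1 in WT 3 and 22.7 TPM for Slc15a2 in Wtap KO 2.

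For usage, 454 transcripts of 114 SLC genes were tested, and limma called 1 transcript in 1 gene, Slc2a9-206. Over the whole series 0.309% of transcripts and 1.15% of genes were called, and 1 call is no more than these shares would give. Slc2a9-206 held 1.99, 2.47 and 2.97% of the counts of Slc2a9 in Wtap KO libraries and 10.8, 14.4 and 13.3% in WT libraries (log2 ratio difference -2.53 ± 0.25, SE, limma adjusted p = 0.0358). Its level was 1.41, 1.49 and 1.82 TPM in Wtap KO and 2.64, 3.45 and 3.18 TPM in WT libraries, so the groups did not overlap on either scale. The longer transcripts were higher in Wtap KO cells: Slc2a9-204 had 7.37, 6.64 and 6.12 TPM in Wtap KO and 2.33, 1.82 and 2.03 TPM in WT libraries, and Slc2a9-203 had 5.45, 5.25 and 4.19 TPM in Wtap KO and 1.27, 2.33 and 2.28 TPM in WT libraries. Their shares of the gene did not pass the test (limma adjusted p = 0.579 and 0.961). The first exon lies at chr5:38501959-38502161 in Slc2a9-206, at chr5:38480039-38480306 in Slc2a9-203 and at chr5:38480039-38480158 in Slc2a9-204, and kallisto's split of reads between them has an error not recorded in the deposited tables. The usage call was lost without Wtap KO 1 or Wtap KO 2, where 0 SLC genes were called by limma and 33 and 39 transcripts had an unadjusted p under 0.05. In edgeR's diffSpliceDGE, 0 were called and 17 had an unadjusted p under 0.05.

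**Figure D4:**
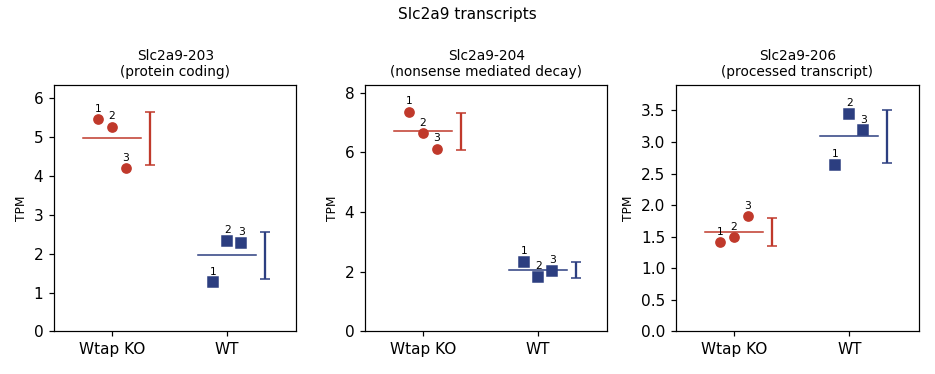
TPM of the 3 main Slc2a9 transcripts in each library, Wtap KO left of WT. Slc2a9-204 and Slc2a9-203 lay above every WT library in Wtap KO cells, and Slc2a9-206, at 1.41 to 1.82 TPM, lay below the WT libraries at 2.64 to 3.45 TPM.

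Other SLC genes had transcript shares apart between the groups without passing the test. The intron-retaining Slc35g1-202 held 24.8 ± 1.90% of its gene in Wtap KO and 11.5 ± 0.964% in WT cells (SD, n = 3 each, limma adjusted p = 0.123). Of Slc39a8, a zinc and manganese importer, the intron-retaining Slc39a8-204 held 13.6 ± 2.90% in Wtap KO and 34.7 ± 3.44% in WT cells (limma adjusted p = 0.129). The full-length coding transcript of Slc7a6, Slc7a6-201, held 36.1 ± 9.66% in Wtap KO and 68.9 ± 8.81% in WT cells (limma adjusted p = 0.305). Over all 131 genes, transcripts annotated as coding held 83.8, 84.3 and 84.1% of the counts in Wtap KO libraries and 84.6, 84.0 and 82.7% in WT libraries, so the groups overlapped. Some genes had a lower share over the 6 libraries: 39.2% in Slc2a1, 42.3% in Slc50a1, 24.3% in Slc35b1, 26.4% in Slc30a9 and 36.35% in Slc30a6. On coding transcripts alone the log2 fold change was 0.40 for Slc50a1 and -0.39 for Slc30a9, against -0.0027 and -0.165 on all transcripts. Neither passed (edgeR adjusted p = 0.144 and 0.129).

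Vitamin and nucleoside carriers held the other call that no omitted library ended. Slc19a1, the reduced folate carrier, had 17.1, 11.9 and 12.3 TPM in Wtap KO libraries and 5.53, 5.94 and 4.62 TPM in WT libraries. Every Wtap KO library lay above every WT library, with a log2 fold change of 1.22 ± 0.17 (SE, n = 3 each, edgeR adjusted p = 0.0052). Slc52a3, a riboflavin carrier, had 3.82, 3.23 and 2.12 TPM in Wtap KO and 1.23, 1.67 and 1.06 TPM in WT libraries (log2 fold change 1.18 ± 0.27, edgeR adjusted p = 0.0325). Slc29a1 (ENT1), an equilibrative nucleoside carrier of the plasma membrane, had 43.9, 40.0 and 35.8 TPM in Wtap KO and 29.3, 24.9 and 23.1 TPM in WT libraries (log2 fold change 0.56 ± 0.13, edgeR adjusted p = 0.0314). These 3 rose, and the groups of each were apart. Omission of WT 2, WT 3, Wtap KO 1 or Wtap KO 2 ended the call of Slc52a3 (adjusted p up to 0.138), and that of any library but WT 1 the call of Slc29a1 (up to 0.139), whereas the adjusted p of Slc19a1 was at most 0.0315.

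The remaining carriers of this group did not pass. Slc43a3, a carrier of purine nucleobases, lay just past the threshold, with 23.2, 28.7 and 25.5 TPM in Wtap KO and 19.8, 13.5 and 8.91 TPM in WT libraries (log2 fold change 0.88 ± 0.24, edgeR adjusted p = 0.0513). Its groups did not overlap, and it passed in DESeq2 (adjusted p = 0.0050), with a replicate block (edgeR adjusted p = 0.0420) and without WT 1 (edgeR adjusted p = 0.00062). The concentrative nucleoside carrier Slc28a2, the most abundant of the group, had 96.6, 81.9 and 86.0 TPM in Wtap KO and 56.9, 99.8 and 87.9 TPM in WT libraries, with WT at both ends of the range. Slc29a3 (ENT3), the nucleoside carrier of the lysosome, had 9.98 to 10.3 TPM in Wtap KO and 8.60 to 9.61 TPM in WT libraries (log2 fold change 0.07 ± 0.10). Summed over the 12 carriers, TPM was 231, 214 and 211 in Wtap KO and 160, 193 and 168 in WT libraries, without overlap.

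Of the 19 amino acid and peptide carriers, 4 rose and 15 did not pass. Slc7a1 (CAT1), the arginine and lysine carrier, had 8.27, 7.93 and 7.77 TPM in Wtap KO and 5.84, 5.46 and 5.19 TPM in WT libraries (log2 fold change 0.49 ± 0.10, SE, n = 3 each, edgeR adjusted p = 0.0227). Slc3a2, the CD98 heavy chain that brings Slc7a5 and related light chains to the surface, had 48.4, 47.4 and 42.8 TPM in Wtap KO and 34.2, 33.1 and 32.9 TPM in WT libraries (log2 fold change 0.41 ± 0.10, edgeR adjusted p = 0.0413). Both showed tight libraries within a group and no overlap. Slc38a10, of the glutamine-carrying SLC38 family, had 14.4, 11.8 and 13.05 TPM in Wtap KO and 7.87, 9.95 and 9.74 TPM in WT libraries (log2 fold change 0.46 ± 0.12, edgeR adjusted p = 0.0481). Slc15a3, a histidine and peptide carrier of the lysosome, had 1.63, 1.99 and 1.09 TPM in Wtap KO and 0.713, 0.874 and 0.574 TPM in WT libraries (log2 fold change 1.26 ± 0.33, edgeR adjusted p = 0.0484). These 2 calls sat close to the threshold, and the fold of Slc15a3 rests on low levels, with 0.57 on log2(TPM + 1). The calls of all 4 were lost without WT 2, Wtap KO 1, Wtap KO 2 or Wtap KO 3, those of Slc3a2 and Slc15a3 also without WT 3, with adjusted p up to 0.190, 0.129, 0.177 and 0.183 for Slc3a2, Slc7a1, Slc38a10 and Slc15a3.

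The amino acid carriers best known from T cell activation gave mixed values. Slc7a5 (LAT1), the leucine carrier that pairs with Slc3a2, had 18.2, 16.5 and 11.4 TPM in Wtap KO and 11.4, 8.95 and 6.45 TPM in WT libraries. Wtap KO 3 touched WT 1, and its log2 fold change, 0.77 ± 0.23, missed the threshold (edgeR adjusted p = 0.073). It passed in DESeq2 (adjusted p = 0.0157), with a replicate block (edgeR adjusted p = 0.0167) and without WT 1 (edgeR adjusted p = 0.048). Slc1a5 (ASCT2), a glutamine carrier, had 114, 98.3 and 101 TPM in Wtap KO and 67.5, 81.0 and 85.2 TPM in WT libraries. Its groups were apart in TPM but overlapped in CPM, and it did not pass (log2 fold change of counts 0.30 ± 0.13, edgeR adjusted p = 0.188). The glutamine and alanine carriers Slc38a1 and Slc38a2 overlapped, at 47.1 to 51.8 and 71.4 to 85.1 TPM in Wtap KO and 43.3 to 56.3 and 69.0 to 86.5 TPM in WT libraries. Slc38a9, the lysosomal arginine sensor of mTORC1, had 19.9, 19.4 and 23.7 TPM in Wtap KO and 26.1, 33.4 and 26.1 TPM in WT libraries (log2 fold change -0.36 ± 0.12, edgeR adjusted p = 0.0917), and passed in DESeq2 (adjusted p = 0.0471) and without WT 1 (edgeR adjusted p = 0.0388). Slc7a6, the light chain that exchanges arginine for glutamine, had 18.3 to 24.4 TPM in Wtap KO and 14.9 to 18.8 TPM in WT libraries, with overlap, and a log2 fold change of counts of -0.02 ± 0.14. Slc15a4, a peptide carrier of the endosome, had 12.4 to 21.3 TPM in Wtap KO and 6.68 to 15.02 TPM in WT libraries, with overlap (edgeR adjusted p = 0.289, and 0.0366 without WT 3). The most abundant of all 131 genes was Slc38a6 with 135, 183 and 156 TPM in Wtap KO and 185, 162 and 131 TPM in WT libraries, almost wholly in 1 transcript, Slc38a6-208. The cystine carrier Slc7a11 lay under the threshold of choice, at 0.539 to 0.607 TPM in Wtap KO and 0.454 to 0.539 TPM in WT libraries. The amino acid carriers summed to 597, 625 and 617 TPM in Wtap KO and 542, 574 and 541 TPM in WT libraries, without overlap.

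Of the 22 ion carriers, 2 rose, and both move chloride together with cations. Slc12a4 (KCC1), a potassium-chloride cotransporter, had 4.37, 3.56 and 3.63 TPM in Wtap KO and 2.05, 2.46 and 2.55 TPM in WT libraries (log2 fold change 0.73 ± 0.16, SE, n = 3 each, edgeR adjusted p = 0.0280). Slc12a2 (NKCC1), the sodium-potassium-chloride cotransporter that brings salt in, had 4.06, 4.36 and 4.86 TPM in Wtap KO and 3.05, 3.12 and 2.76 TPM in WT libraries (log2 fold change 0.52 ± 0.12, edgeR adjusted p = 0.0327). The groups of both were apart. Without WT 2 or any Wtap KO library both calls were lost, that of Slc12a2 also without WT 3 (adjusted p up to 0.133 for Slc12a4 and 0.152 for Slc12a2). Slc12a7 (KCC4) had 38.3, 28.1 and 35.6 TPM in Wtap KO and 25.9, 44.7 and 44.7 TPM in WT libraries, with WT at both ends (log2 fold change -0.21 ± 0.22, edgeR adjusted p = 0.596, and -0.45 with 0.0364 without WT 1). The phosphate carrier Slc20a1 had 53.5 to 66.0 TPM in Wtap KO and 41.4 to 57.1 TPM in WT libraries (edgeR adjusted p = 0.687).

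Organic ion carriers rose in 4 of 10 cases, and their summed TPM was 141, 124 and 135 in Wtap KO and 81.3, 94.4 and 112 in WT libraries. Slco4a1, an organic anion carrier that takes up thyroid hormones, had 37.3, 38.9 and 42.8 TPM in Wtap KO and 26.6, 21.1 and 27.6 TPM in WT libraries (log2 fold change 0.56 ± 0.13, SE, n = 3 each, edgeR adjusted p = 0.0297). Slc14a1, a urea channel, had 15.5, 12.1 and 10.2 TPM in Wtap KO and 5.57, 8.35 and 7.81 TPM in WT libraries (log2 fold change 0.81 ± 0.18, edgeR adjusted p = 0.0297). These were the more abundant of the 4, and their groups did not overlap. Of the counts of Slco4a1, 21.6% lay in transcripts annotated as coding, and on these alone its call was lost (log2 fold change 0.75, edgeR adjusted p = 0.383), as were those of Slc18a2 (0.0575) and of the metal carrier Slc39a11 (0.0515). Slc17a5 (sialin), which exports sialic acid from the lysosome, had 5.90, 5.45 and 5.89 TPM in Wtap KO and 2.94, 3.96 and 3.89 TPM in WT libraries (log2 fold change 0.63 ± 0.14, edgeR adjusted p = 0.0325). Slc18a2 (VMAT2), the vesicular monoamine carrier, had 1.19, 1.32 and 1.66 TPM in Wtap KO and 0.598, 0.653 and 0.795 TPM in WT libraries (log2 fold change 0.98 ± 0.21, edgeR adjusted p = 0.0244). All 4 calls were lost without WT 2, Wtap KO 1 or Wtap KO 2, and all but that of Slc14a1 without Wtap KO 3 (adjusted p up to 0.120, 0.125, 0.139 and 0.106 in the order given). Slc17a9, the vesicular ATP carrier and the most abundant of the group, had 32.6 to 45.4 TPM in Wtap KO and 21.2 to 41.9 TPM in WT libraries, and Slco3a1, an organic anion carrier, 20.2 to 24.4 TPM in Wtap KO and 13.7 to 20.2 TPM in WT libraries, and neither passed (edgeR adjusted p = 0.651 and 0.504).

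Metal carriers, the largest group, stayed near no difference at the median (log2 fold change 0.00 over 23 genes), and 2 rose. Slc39a6 (ZIP6), a zinc importer of the plasma membrane, had 29.4, 26.1 and 29.3 TPM in Wtap KO and 12.1, 16.8 and 19.97 TPM in WT libraries. The WT libraries spread more than the Wtap KO libraries, without reaching them (log2 fold change 0.75 ± 0.13, SE, n = 3 each, edgeR adjusted p = 0.0127). Slc39a11 (ZIP11), a zinc carrier of the same family, had 3.29, 2.99 and 2.65 TPM in Wtap KO and 2.02, 1.95 and 1.49 TPM in WT libraries (log2 fold change 0.69 ± 0.17, edgeR adjusted p = 0.0429). The call of Slc39a6 was lost without WT 2 or Wtap KO 1 (adjusted p up to 0.0558) and that of Slc39a11 without any library but WT 1 (up to 0.178). Slc39a10 (ZIP10) overlapped between the groups, at 5.75 to 7.91 TPM in Wtap KO and 5.35 to 8.20 TPM in WT libraries. So did the zinc exporter Slc30a1, at 3.44 to 3.67 TPM in Wtap KO and 2.34 to 3.47 TPM in WT libraries, and the iron and manganese importer Slc11a2, at 11.3 to 14.3 TPM in Wtap KO and 9.46 to 19.4 TPM in WT libraries. Slc30a9 and Slc30a6, zinc carriers of the SLC30 family, had log2 fold changes of -0.16 ± 0.14 and 0.07 ± 0.12. The copper importer Slc31a1 had 5.37, 5.64 and 4.77 TPM in Wtap KO and 7.81, 6.63 and 6.32 TPM in WT libraries, groups that were apart without passing (log2 fold change -0.44 ± 0.14, edgeR adjusted p = 0.0771; DESeq2 adjusted p = 0.0257). The iron exporter Slc40a1 was barely seen, at most at 0.0164 TPM in Wtap KO and 0.0331 TPM in WT libraries.

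Of 16 carriers of nucleotide sugars and related donors, 1 rose. Slc35b2, which brings the sulfate donor PAPS into the Golgi, had 20.6, 20.2 and 18.2 TPM in Wtap KO and 11.8, 13.5 and 12.8 TPM in WT libraries (log2 fold change 0.61 ± 0.13, SE, n = 3 each, edgeR adjusted p = 0.0261). The groups were apart, and the call was lost without WT 2 or any Wtap KO library (adjusted p up to 0.122). Slc35b3, the related PAPS carrier, was more abundant and overlapped, with 48.6, 46.5 and 42.2 TPM in Wtap KO and 59.1, 63.6 and 43.9 TPM in WT libraries (log2 fold change -0.34 ± 0.14, edgeR adjusted p = 0.154, and 0.0351 without WT 3). Slc35b1, the ATP carrier of the ER, had 42.1 to 46.8 TPM in Wtap KO and 33.3 to 45.7 TPM in WT libraries. Slc35a5 had 29.6 to 40.0 TPM in Wtap KO and 33.4 to 36.8 TPM in WT libraries. Slc35a1, the CMP-sialic acid carrier, had 12.3 to 16.0 TPM in Wtap KO and 10.7 to 15.6 TPM in WT libraries. All 3 overlapped in TPM. In CPM, however, every Wtap KO value of Slc35a5 lay below every WT value. The change of Slc35a5 did not pass (log2 fold change of counts -0.20 ± 0.12, edgeR adjusted p = 0.318).

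Lactate and monocarboxylate carriers did not pass. Slc16a3 (MCT4), a lactate exporter of glycolytic cells, had 15.5, 11.6 and 5.40 TPM in Wtap KO and 19.9, 9.09 and 12.9 TPM in WT libraries, a spread within each group wider than the difference of the means. Slc16a1 (MCT1) had 11.1 to 11.5 TPM in Wtap KO and 8.51 to 13.2 TPM in WT libraries, and Slc16a6 6.08 to 7.39 TPM in Wtap KO and 4.10 to 5.31 TPM in WT libraries (edgeR adjusted p = 0.813 and 0.209). Basigin (Bsg), the chaperone that takes Slc16a1 and Slc16a3 to the surface, had 67.1, 63.5 and 57.1 TPM in Wtap KO and 165, 93.9 and 77.7 TPM in WT libraries (log2 fold change -0.89 ± 0.24, edgeR adjusted p = 0.0529), apart but just short of the threshold. Among lipid and choline carriers, Slc44a2, a choline carrier-like protein, had 154, 130 and 128 TPM in Wtap KO and 106, 137 and 145 TPM in WT libraries. Slc10a3 and Slc10a7, of the bile acid carrier family, had log2 fold changes of 0.47 ± 0.20 and 0.11 ± 0.13 (edgeR adjusted p = 0.184 and 0.648). Of the 5 genes without an assigned substrate none passed in edgeR, 1 had an unadjusted p under 0.05, and DESeq2 called 1 lower. The most abundant was Slc35g1, with 14.1, 13.5 and 19.9 TPM in Wtap KO and 16.8, 30.7 and 21.1 TPM in WT libraries (log2 fold change -0.78 ± 0.22, edgeR adjusted p = 0.0598), which passed in DESeq2 (adjusted p = 0.0072), without WT 1 (edgeR adjusted p = 0.0157), without the low-count filter (0.0435) and on protein-coding transcripts alone (0.0278). Next came Slc35f6 and Slc35f2 with log2 fold changes of 0.32 ± 0.15 and 0.09 ± 0.17. The genes that encode no transporter, Slc9a3r1, Slc7a6os and Slc4a1ap, had log2 fold changes of 0.14 ± 0.13, -0.26 ± 0.10 and -0.14 ± 0.12, none past the threshold in edgeR or DESeq2 (Slc7a6os passed with the GC content offset, edgeR adjusted p = 0.0414) and 1 with an unadjusted p under 0.05.

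**Figure D5:**
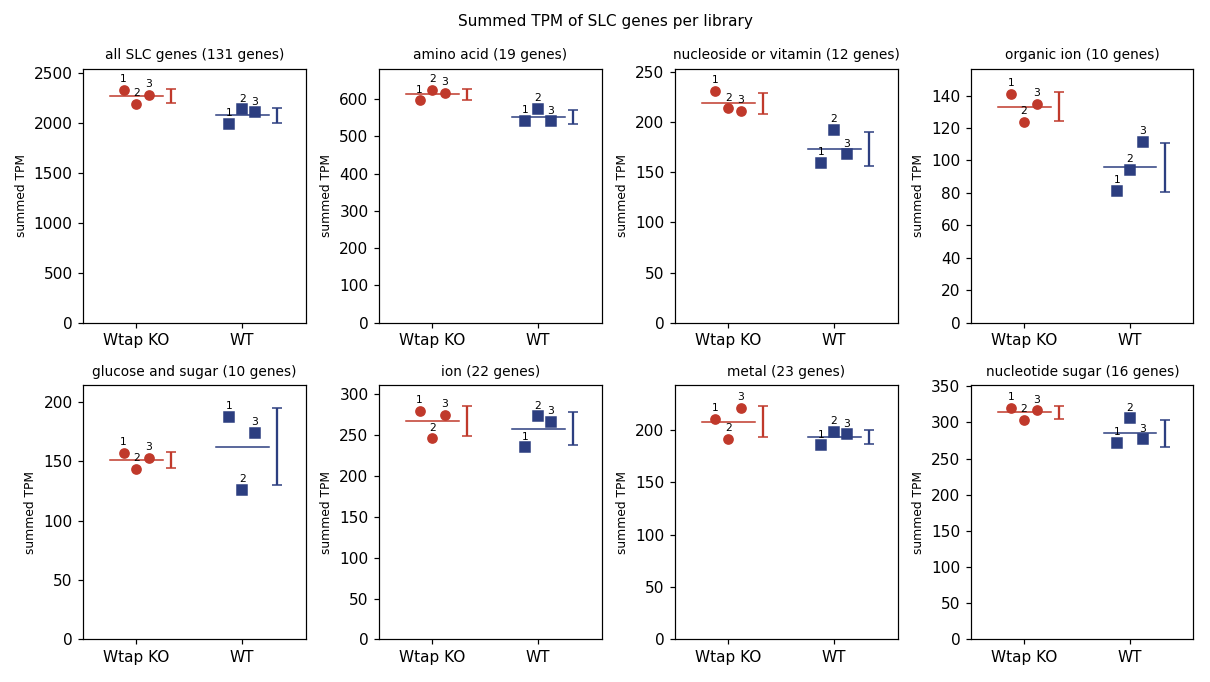
Summed TPM of all 131 SLC genes and of the 7 substrate groups with called genes in each numbered library, Wtap KO left of WT, with a line for the mean and a bar for the SD. Sums did not overlap for carriers of amino acids, of nucleosides or vitamins, and of organic ions, and over all 131 genes they were 2326, 2189 and 2279 TPM in Wtap KO and 1985, 2131 and 2101 TPM in WT libraries.

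Beside the carriers, 47 genes that chaperone, anchor, ubiquitinate, power or regulate transporters, or carry solutes or metals under other names, were listed, and 44 were tested. By edgeR 3 rose (6.82%, near the background of 5.75% over all genes and 6.94% over protein-coding genes) and none fell, with 16 at an unadjusted p under 0.05, and DESeq2 called 7 higher and 6 lower. Shares over all genes are not given for the unadjusted p or for DESeq2, so those counts have no background here. All 3 genes called by edgeR were on the list of 9 tested regulators. Castor1, an arginine sensor, had 33.2, 25.7 and 22.98 TPM in Wtap KO and 15.9, 14.98 and 15.2 TPM in WT libraries (log2 fold change 0.78 ± 0.15, SE, n = 3 each, edgeR adjusted p = 0.0168). Its paralog Castor2 had 15.9, 9.59 and 15.2 TPM in Wtap KO and 7.89, 7.74 and 7.07 TPM in WT libraries (log2 fold change 0.88 ± 0.14, edgeR adjusted p = 0.0087). How kallisto split reads between the 2 paralogs was not checked. Sesn2, a leucine sensor, had 4.46, 4.15 and 4.56 TPM in Wtap KO and 2.40, 2.38 and 3.29 TPM in WT libraries (log2 fold change 0.65 ± 0.17, edgeR adjusted p = 0.0478). No Wtap KO library reached down to a WT library in any of the 3. Castor2 passed whatever library was left out (adjusted p up to 0.0488). The call of Castor1 was lost on omission of Wtap KO 1, Wtap KO 2 or WT 2 (up to 0.0732), and that of Sesn2 on omission of any library but WT 3 (up to 0.157).

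Promoters are shown for Slc19a1 and Slc2a6, which rose and have RefSeq entries, to give the reader the sequence ahead of a RefSeq start in 2 of the risen genes. Each is the 250 bases upstream of the RefSeq start on GRCm38.p6, 5′ to 3′ on the gene's strand, with GCGTG or its reverse complement CACGC, the core of the hypoxia response element, in capitals. The Slc19a1 stretch lies on the plus strand at chr10:77032489-77032738 and the Slc2a6 stretch on the minus strand at chr2:27027999-27028248. In GENCODE M21, used for the counts, Slc19a1 spans chr10:77032241-77061002, so its stretch lies inside the annotated gene.
Slc19a1: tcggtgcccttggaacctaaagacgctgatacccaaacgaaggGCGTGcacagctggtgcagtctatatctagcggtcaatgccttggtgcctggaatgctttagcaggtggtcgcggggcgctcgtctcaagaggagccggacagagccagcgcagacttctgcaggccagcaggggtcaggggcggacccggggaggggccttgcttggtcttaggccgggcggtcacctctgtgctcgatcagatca
Slc2a6: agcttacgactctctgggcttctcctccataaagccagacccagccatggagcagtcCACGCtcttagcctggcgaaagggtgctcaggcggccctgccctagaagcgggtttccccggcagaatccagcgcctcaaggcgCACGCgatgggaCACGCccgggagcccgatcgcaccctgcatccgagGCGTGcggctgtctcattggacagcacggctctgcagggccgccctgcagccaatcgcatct

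The Slc19a1 stretch held 1 match and was 62% GC, and the Slc2a6 stretch held 4 and was 65.2% GC. Over windows of 300 bases, 56 of the 98 SLC genes with an entry (57.1%) held GCGTG on either strand, against 35.2% of 27025 genes. Of 13 risen genes with an entry 8 held it, a share near that of the 98 SLC genes. The other hypoxia core, ACGTG, was found in 32.7% of the SLC genes and 21.8% of all. The E-box CACGTG of lysosomal genes, which contains ACGTG on both strands, was found in 17.3% of the SLC genes and 8.09% of all, and in 2 of the 13 risen genes. The metal response cores TGCACNC and TGCGCNC stood in 24.5% and 29.6% of the SLC genes against 14.2% and 17% of all, and in 5 and 4 of the 13. TGATGNA, taken from the ATF4 element of amino acid response genes, stood in 8.16% against 13.8% and in 1 of the 13. Base composition differs between promoters and was not held equal here, and a match describes letters in a window, not binding. The 27025 genes were not restricted to those at 1 TPM or more, as the SLC genes were. A gene with more than 1 window was counted if any window held the match.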

How the data were processed

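RNA from 3 Wtap KO and 3 WT libraries had been quantified by the submitters with kallisto 0.44.0 on GRCm38 (mm10), per the submitters' processing notes, which also name DESeq2. The authors deposited estimated counts and TPM values per transcript. TPM values are the authors' estimated counts per effective length, scaled to a fixed total per library. Neither the annotation release nor the strand setting is named in the sources used here. Of 142647 transcripts in each deposited table, 99.1% matched GENCODE M21 by identifier without version and 1218 did not. Per gene, the deposited estimated counts were added up and then rounded to integers.

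Genes were tested with edgeR 4.0.16 (quasi-likelihood, robust, TMM, filterByExpr, R 4.3.3) with genotype as the only term. Benjamini-Hochberg adjustment took in all 17610 tested genes, and 0.05 was the threshold. Transcript usage was tested with limma 3.58.1 on the log2 ratio of a transcript's count to the rest of its gene, with 0.5 added to both, for transcripts with a mean count of at least 10 in genes with a mean count of at least 50 and at least 2 such transcripts. Its adjustment ran over all 38829 transcripts tested. Both tests were tried on simulated data, with noise drawn independently for each gene or transcript in each library. The outcome is not reported here. DESeq2 1.42.0, other normalizations, filters and offsets, limma on log2(TPM + 1) and log2(TPM + 0.1), a replicate block and the omission of each library served as alternatives.

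The genes, the substrate groups and every list were chosen with earlier results of these data known. Substrate and membrane were assigned by hand from general knowledge, and 5 genes were left without a substrate. Genes named are all called genes, the 3 of highest mean TPM in each substrate group, 29 genes with known roles in activated T cells, those nearest the TPM threshold and called transport partners. Results of 2 genes that this rule names are not reported here. Any other gene named was chosen after its values were seen. SEs of log2 fold changes follow from the F statistic, as the size of the change over the root of F. Promoters came from RefSeq (GRCm38.p6) and transcripts from GENCODE M21 (GRCm38).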

Additional observations from a re-analysis of the deposited data

How the results depend on the processing

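No called SLC gene changed direction under any of the 17 alternatives run on it. The groups of each called gene did not overlap in CPM, so the omission of a library could hardly have reversed it. Of the SLC genes chosen for naming, called or not, 8 had the other sign without WT 3. Against 19 higher and 1 lower, 12 were higher with a gene length offset and 11 with limma on either log2(TPM + 1) or log2(TPM + 0.1), and 10 at a mean of at least 5 TPM. DESeq2 gave 25 higher and 5 lower, no low-count filter 22 and 2, protein-coding transcripts alone 16 and 2, and a GC content offset 13 and 3. At a threshold of 0.5 TPM, 3 were lower. Without WT 1 and Wtap KO 3 together, chosen after seeing the data, 26 were higher and 4 lower. Leaving out 1 library gave 2 to 24 higher, 0 to 5 lower, a median log2 fold change of 0.064 to 0.19 and 0 to 2 genes with changed transcript usage. The 0 lower came without Wtap KO 2. The median was 0.051 with the GC offset and 0.173 and 0.199 with limma at a pseudocount of 1 and 0.1. The cause of these shifts was not tested. Shares called and medians over all genes are not given for the alternatives. A shift of the SLC genes therefore cannot be told here from a shift of all genes. With the replicate number as a block, 11 were higher and 1 lower, and 0 changed in usage by limma (36 transcripts at an unadjusted p under 0.05), as with diffSpliceDGE (0). Deviations of same-numbered libraries from their group mean correlated at -0.10, 0.05 and 0.14, and those of other pairs at -0.20 to 0.15. Of the WT libraries only WT 3 correlated best with its own number. With 3 libraries per group these values cannot tell whether the numbers pair the samples. The low genes Slc2a6, Slc15a3 and Slc18a2 lie near 1 TPM, where a fold moves most with the scale. Of the 131 genes, 21 overlap another gene above 0.5 TPM, 19 on the opposite strand, whose reads cannot be told apart without the strand setting.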

Other observations

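Slc15a2, a peptide carrier of the plasma membrane, was listed at 0 in every transcript in WT 3. Its estimated counts were 606, 2003 and 803 in Wtap KO libraries and 528, 594 and 0 in WT libraries. After rounding to whole counts, 2 genes were at 0 in 1 library with at least 100 counts in each of the others, Slc15a2 and the pseudogene Gm7336, which had an estimated count of 0.0946 in WT 3. Among genes near it, Golgb1 had 1586, 1654 and 2186 estimated counts in Wtap KO and 1451, 1259 and 1426 in WT libraries, and Hcls1 had 3052, 3151 and 3233 in Wtap KO and 2550, 2361 and 2875 in WT libraries. Cd86 was lowest in WT 3, with 56.5, 109 and 45.5 in Wtap KO and 136, 49 and 12 in WT libraries. Slc15a2 was chosen after its values were seen. Its log2 fold change was 1.33 ± 1.26 (SE, n = 3 each, edgeR adjusted p = 0.570).

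The sodium pump and the kinases of the cation-chloride cotransporters also held values just short of the threshold, picked after they were seen. Atp1b1, a beta subunit of the pump, had 4.49, 3.87 and 4.51 TPM in Wtap KO and 4.32, 10.6 and 10.4 TPM in WT libraries, where WT 1 lay with the Wtap KO libraries (log2 fold change -1.16 ± 0.31, edgeR adjusted p = 0.0530). Stk39, a kinase that acts on Slc12 cotransporters, had 21.2, 23.7 and 21.6 TPM in Wtap KO and 37.3, 26.6 and 25.6 TPM in WT libraries (log2 fold change -0.68 ± 0.20, edgeR adjusted p = 0.0694).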
